A study of Mus musculus with 12 samples.

Results

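The Ezh2b and Ezh2a mutations were compared with each other in MEFs, fibroblasts cultured from mouse embryos, by the difference between their effects on each gene. An effect is the log2 fold change of a mutant over its own wild type, and the difference is the Ezh2b effect minus the Ezh2a effect, so a positive difference means a higher effect of the Ezh2b mutation. Of 35602 gene symbols counted, 15708 had enough counts to be tested. The difference passed the threshold, an adjusted p under 0.05 in edgeR's quasi-likelihood test, in 4168 genes (26.5% of those tested), with 2305 positive (14.7%) and 1863 negative (11.9%). Among them, 936 genes (5.96%) changed in opposite directions in the mutants, 499 of them (3.18%) up in the Ezh2b mutant and down in the Ezh2a mutant and 437 (2.78%) the other way round.

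RNA was sequenced from 12 libraries in 4 groups of 3, namely Ezh2b mutants, their littermate wild type, Ezh2a mutants and their littermate wild type, all labelled as MEFs grown in serum-containing medium. The labels used here call the genotypes mutation or wild type and do not state the alleles, the strain or the age of the embryos. They also do not say that the replicates of a group came from separate embryos or cultures, so the p-values reflect variation among these libraries, part of which may be technical. Each mutant was set against its own wild type, and the effects being compared therefore share no library. The mutation, the mouse line and the set of cultures cannot be told apart, since each mutation occurs in 1 set only.

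Total counts ran from 28811482 to 54070380 per library, and 18619 to 19891 genes were detected. Replicate 3 of the Ezh2b wild type stood apart from its group, with a mean chi-square per gene of 9.53 to 10.4 against the other libraries of that group. All other pairs of replicates lay between 2.51 and 4.16, and pairs of libraries from different groups between 13 and 65.8. Replicate 3 of the Ezh2b wild type was also the deepest library, at 54070380 counts. The same relative deviation gives a larger chi-square at greater depth, and the part of depth was not tested. Without that library the difference passed the threshold in 4321 genes and 985 were opposed, of which 836 were among the 936. The wild types themselves differed in 6642 genes (42.3%), with 3212 higher (20.4%) and 3430 lower (21.8%) in that of the Ezh2b set. Because of this, the level in all 4 groups is given beside each effect.

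EZH2 is the enzyme of PRC2, a Polycomb complex that marks silent genes by methylating histone H3. Many of these genes encode developmental regulators such as the Hox factors, and PRC2 also acts on the Cdkn2a locus, whose products restrain division of cultured fibroblasts. The series title describes EZH2 isoforms made by cryptic splice sites, and the mutants are named after the forms Ezh2a and Ezh2b. The deposited counts are per gene and do not separate these forms.

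Ezh2 itself (chromosome 6, 47530139 to 47595341, minus strand, GRCm38) responded in the Ezh2a mutant only. Its level was 35.4, 33.6 and 36.4 CPM (counts scaled to a common library size) in the Ezh2b mutant libraries, against 33.8, 35.8 and 35.3 CPM in their wild type. In the Ezh2a mutant libraries it was 14.2, 15.2 and 14.2 CPM, against 30.5, 30.4 and 30.1 CPM in their wild type. The Ezh2b groups overlapped, while every Ezh2a mutant library lay below every wild-type library, 2.09-fold lower on average. The difference between the effects was 1.07 ± 0.07 on the log2 scale (SE, n = 3 libraries per group, adjusted p = 8.44e-10 by edgeR). None of the 11 other tested PRC2 genes was called in the Ezh2a mutant, against 19.8% of all tested genes. Ezh1, the related methyltransferase, had effects of 0.16 in the Ezh2b mutant and -0.06 in the Ezh2a mutant (difference 0.22 ± 0.09, adjusted p = 0.0662 by edgeR), and its levels averaged 20.6, 18.5, 23.6 and 24.6 CPM in the Ezh2b mutant, Ezh2b wild type, Ezh2a mutant and Ezh2a wild type. In the Ezh2b mutant 3 of the 12 tested PRC2 genes were called lower, against 12.1% of all tested genes. Rbbp7, a histone-binding subunit, fell by 0.18 in the Ezh2b mutant, and its effect was -0.02 in the Ezh2a mutant. Rbbp4 and Aebp2 fell by 0.16 and 0.25 in the Ezh2b mutant, but their differences did not pass. Phf19 passed for the difference (-0.55 ± 0.18, adjusted p = 0.0267 by edgeR) without passing for either effect (-0.32 and 0.23).

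Responses limited to 1 mutant by the threshold were the most frequent class. The Ezh2b mutant differed from its wild type in 4105 genes (26.1%), 2200 higher (14%) and 1905 lower (12.1%), and the Ezh2a mutant from its wild type in 3118 genes (19.8%), 1509 higher (9.61%) and 1609 lower (10.2%). Of the 4168 genes whose effects differed, 2684 (64.4%) were called in 1 mutant alone. In the Ezh2b mutant alone 991 rose and 739 fell, and in the Ezh2a mutant alone 418 rose and 536 fell. A further 187 genes moved the same way in both mutants but by unequal amounts, 123 up and 64 down, and 361 passed for the difference without passing for either effect. The count of 64 was 41 without Ezh2a mutant replicate 1 or Ezh2a wild-type replicate 2. Scaling by library totals turned the share of positive differences among those called to 38.2%, against 55.3% with the main normalisation, and shifted the median difference of all genes by -0.07. When genes were counted by effect alone, 1506 were called in both mutants, and 936 of these (62.2%) had opposite signs, while 340 rose in both and 230 fell in both. Across all tested genes the effects had a Pearson r of -0.02 and a Spearman rho of -0.08, which is a description over genes that are not independent of each other.

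**Figure D1:**
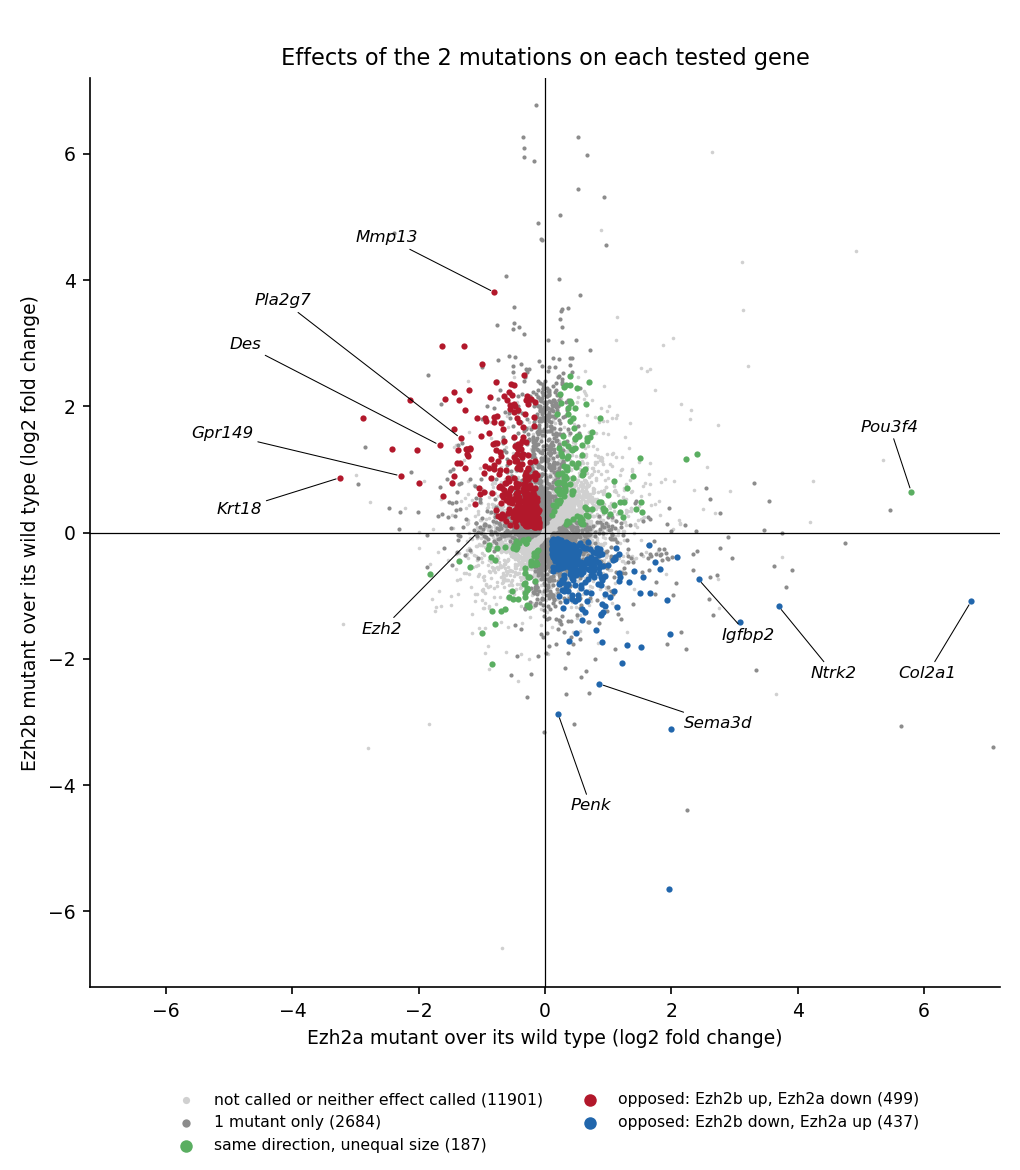
Log2 fold change in the Ezh2b mutant (vertical axis) against that in the Ezh2a mutant (horizontal axis), each over its own wild type, with 1 point per tested gene coloured by class and 5 genes beyond the axes not drawn. The 499 red and 437 blue points fill the upper left and lower right quadrants, and the 2684 dark grey points are genes called in 1 mutant.

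Most opposed changes were small. The median effects of the 499 genes were 0.36 in the Ezh2b mutant and -0.27 in the Ezh2a mutant, and those of the 437 genes were -0.36 in the Ezh2b mutant and 0.31 in the Ezh2a mutant. Both effects reached 1.5-fold in 128 genes and 2-fold in 38. Under 18 alternative settings, which include leaving out each library, 492 of the 936 genes stayed opposed throughout, and in none did either effect change sign. The order of the 4 group means varied. For 210 of the 499 and 144 of the 437 genes, both mutant means lay between the wild-type means, so the mutants were closer to each other than the wild types were. For 206 of the 499 and 185 of the 437, both wild-type means lay between the mutant means.

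Among the genes that rose in the Ezh2b mutant and fell in the Ezh2a mutant, Mmp13 had the largest difference of those named by rule. Mmp13 (chromosome 9, 7272514 to 7283331, plus strand, GRCm38) encodes collagenase-3, a secreted enzyme that cuts fibrillar collagen. It measured 8.92, 10.5 and 8.46 CPM in the Ezh2b mutant libraries, against 0.675, 0.448 and 0.787 CPM in their wild type. It measured 8.76, 10.5 and 9.48 CPM in the Ezh2a mutant libraries, against 15.6, 16.8 and 17.6 CPM in their wild type. Neither pair of groups overlapped, and both mutants sat at nearly the same level while the wild types lay far apart on either side. The effects were 3.8 and -0.80 (difference 4.61 ± 0.19, adjusted p = 1.07e-12 by edgeR). AP-1 factors are known regulators of this gene, and its promoter is printed here to show an AP-1 motif near its start. The sequence is from RefSeq (GRCm38.p6, chr9:7272264-7272543, plus strand, the last 30 bases transcribed), and capitals mark the only match to TGACTCA or its reverse complement TGAGTCA, whose first base lies at -35. Of all promoters of 300 bases in the RefSeq table, 5.17% hold such a match.
Mmp13: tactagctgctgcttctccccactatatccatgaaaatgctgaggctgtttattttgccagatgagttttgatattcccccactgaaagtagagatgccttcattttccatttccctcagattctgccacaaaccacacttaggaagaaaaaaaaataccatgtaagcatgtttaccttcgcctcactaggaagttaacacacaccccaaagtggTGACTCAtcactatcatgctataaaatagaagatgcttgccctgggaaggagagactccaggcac

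Pla2g7, Gpr149 and Dusp4 moved apart from wild-type levels that were less than 1.5-fold apart. Pla2g7 (chromosome 17, 43568098 to 43612201, plus strand), a secreted phospholipase that inactivates platelet-activating factor, had 36.7, 37.4 and 38.5 CPM in the Ezh2b mutant libraries, against 11.9, 14.6 and 13.5 CPM in their wild type. It had 5.69, 5.82 and 5.33 CPM in the Ezh2a mutant libraries, against 13.3, 15.5 and 13.8 CPM in their wild type. The wild types overlapped (log2 difference -0.09, adjusted p = 0.379 by edgeR), whereas the mutants lay on opposite sides of them. The effects were 1.49 and -1.34 (difference 2.83 ± 0.11, adjusted p = 8.01e-13 by edgeR). Gpr149 (chromosome 3, 62529077 to 62605140, minus strand), an orphan receptor, had 13.2, 11.4 and 12.4 CPM in the Ezh2b mutant libraries, against 6.14, 7.61 and 6.19 CPM in their wild type, and 0.891, 1.00 and 1.08 CPM in the Ezh2a mutant libraries, against 5.0, 4.2 and 5.26 CPM in their wild type. Its groups did not overlap within either set, and its difference was 3.18 ± 0.19 (adjusted p = 1.52e-10 by edgeR). Dusp4, a phosphatase that switches off MAP kinases and was chosen after its values were seen, averaged 13.3 CPM in the Ezh2b mutant and 7.26 CPM in its wild type, against 4.59 CPM in the Ezh2a mutant and 8.32 CPM in its wild type, with effects of 0.87 and -0.86. Il1rn, the antagonist of the interleukin-1 receptor and also chosen after its values were seen, averaged 170.0 CPM in the Ezh2b mutant, 103 CPM in its wild type, 82.7 CPM in the Ezh2a mutant and 138 CPM in its wild type, with effects of 0.72 and -0.74.

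Des (chromosome 1, 75360329 to 75368579, plus strand) encodes desmin, the intermediate filament of muscle cells. It had 37.9, 38.7 and 37.4 CPM in the Ezh2b mutant libraries, against 15.6, 14.7 and 13.8 CPM in their wild type. It had 32.9, 34.5 and 35.2 CPM in the Ezh2a mutant libraries, against 109, 112 and 105 CPM in their wild type. As with Mmp13, the mutants met at an intermediate level, and the effects were 1.38 and -1.67 (difference 3.05 ± 0.07, adjusted p = 2.42e-16 by edgeR). Desmin belongs to a list of 26 smooth muscle and contractile genes, in which the difference was positive for 17 and negative for 2, against 14.7% and 11.9% of all tested genes. Opposed changes occurred in 7 of the 26, against 3.18% of all tested genes in this direction. They were Des, Lmod1, Acta2, Cnn1, Tagln, Cald1 and Mylk, each up in the Ezh2b mutant and down in the Ezh2a mutant. Other members did not share this pattern. Myh11 rose in both mutants (effects 1.10 and 0.43), Vcl fell in both (effects -0.15 and -0.13), and Smtn and Myh10 fell in the Ezh2b mutant alone. Acta2, smooth muscle actin, averaged 4402 CPM in the Ezh2b mutant, 3238 CPM in its wild type, 2772 CPM in the Ezh2a mutant and 3067 CPM in its wild type. Its Ezh2a effect of -0.15 lost the call under 6 of the 18 alternatives, each leaving out 1 Ezh2a library other than mutant replicate 3 or scaling by library totals (highest adjusted p 0.107 by edgeR). Actg2, enteric smooth muscle actin, rose in the Ezh2b mutant alone, to 227 ± 12.1 CPM against 98.3 ± 7.8 CPM (SD, n = 3), with 99.6 ± 4.97 CPM in the Ezh2a mutant and 99.2 ± 5.11 CPM in its wild type. Ankrd1, a target of mechanical signalling in muscle, likewise rose in the Ezh2b mutant to 40.5 CPM against 14.8 CPM, with 14 CPM in the Ezh2a mutant and 16.8 CPM in its wild type.

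**Figure D2:**
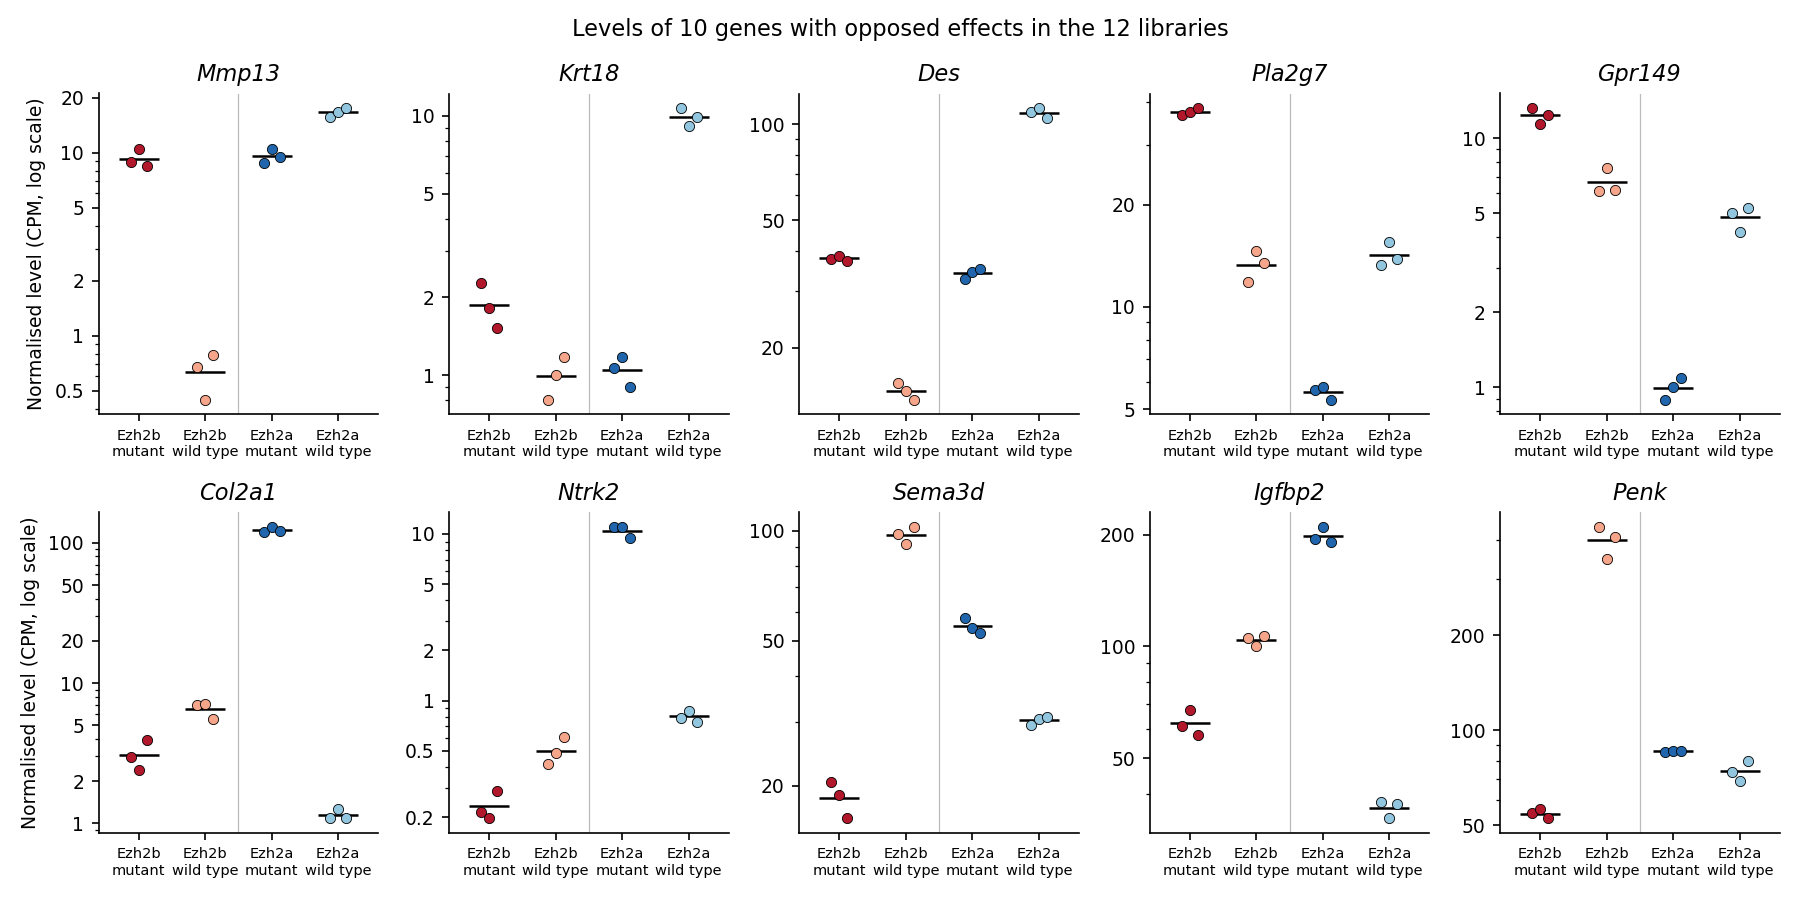
Normalised level (CPM, log axis) of 10 genes with opposed effects in the 12 libraries, with 1 point per library and a line at each group mean, in the order Ezh2b mutant, Ezh2b wild type, Ezh2a mutant and Ezh2a wild type. In Mmp13 and Des both mutants lie between their wild types, in Pla2g7 the wild types are level and the mutants lie on either side, and in Col2a1 the Ezh2a mutant stands alone at 119 to 131 CPM.

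Listed genes of mesothelium and simple epithelium were mostly opposed in this direction. Of 14 tested members, 10 had a positive difference and none a negative one, against 14.7% and 11.9% of all tested genes, 8 were opposed, against 3.18%, and the median difference was 2.41, where all tested genes together have a median near 0. Krt18 (chromosome 15, 102028180 to 102032027, plus strand), a keratin of simple epithelia, had 2.28, 1.82 and 1.52 CPM in the Ezh2b mutant libraries, against 0.803, 0.998 and 1.17 CPM in their wild type, and 1.06, 1.17 and 0.899 CPM in the Ezh2a mutant libraries, against 10.7, 9.10 and 9.90 CPM in their wild type. Only the Ezh2a wild type was high, and the effects were 0.87 and -3.25 (difference 4.12 ± 0.25, adjusted p = 2.36e-10 by edgeR). Its partner Krt8 moved likewise, with effects of 1.82 and -2.88. Muc16, a cell-surface mucin, averaged 2.29 CPM in the Ezh2b mutant, 0.345 CPM in its wild type, 1.99 CPM in the Ezh2a mutant and 3.94 CPM in its wild type. Msln, mesothelin, averaged 13.3, 6.85, 21.2 and 41.4 CPM in the same order, and Upk3b, a uroplakin, 6.86, 1.36, 10.2 and 14.3 CPM. Wt1, Upk1b and Lrrn4 complete the 8. Krt19 fell alike in both mutants (effects -0.70 and -0.70) and Gpm6a rose in both (effects 1.57 and 0.80), and the difference passed for neither. For 13 of the 14 members, all but Krt19, the Ezh2b wild type was called lower than the Ezh2a wild type, against 21.8% of all tested genes. The 19 listed markers together held 0.00561 to 0.00584% of counts in the Ezh2b mutant, 0.00379 to 0.00443% in its wild type, 0.00745 to 0.00821% in the Ezh2a mutant and 0.0127 to 0.0135% in its wild type. Krt19 was the highest tested member in both Ezh2b groups, at 15.1 CPM in the mutant and 24.6 CPM in its wild type. The sums in that set therefore do not follow the opposed genes alone. In bulk RNA, a change in the number of such cells and a change in RNA per cell cannot be told apart.

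Serpinb6b, Dpep2 and Lyz2 completed the leading genes of this direction. Lyz2 (chromosome 10, 117277331 to 117282321, minus strand) encodes the lysozyme of macrophages and had 203, 206 and 201 CPM in the Ezh2b mutant libraries, against 39.7, 34.6 and 33.9 CPM in their wild type. In the Ezh2a mutant libraries it had 590.3, 594 and 582 CPM, against 721, 752 and 755 CPM in their wild type. All 12 values separated into 4 groups, with effects of 2.50 and -0.33 (difference 2.83 ± 0.06, adjusted p = 2.42e-16 by edgeR). Serpinb6b, a serine protease inhibitor, averaged 3.84 CPM in the Ezh2b mutant, 0.827 CPM in its wild type, 7.53 CPM in the Ezh2a mutant and 17.4 CPM in its wild type. Dpep2, a dipeptidase, averaged 1.65, 0.343, 3.65 and 5.30 CPM in that order, and its Ezh2a effect of -0.54 lost the call without Ezh2a wild-type replicate 3 (adjusted p = 0.0676 by edgeR). These 3 genes had log2 differences between the wild types of -4.37, -4.43 and -4.04 for Lyz2, Serpinb6b and Dpep2, as macrophage markers did.

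All 28 tested macrophage markers had a positive difference, against 14.7% of all tested genes. Of them 4, Lyz2, Cd14, Itgam and Clec4d, were opposed, against 3.18%. All 28 rose in the Ezh2b mutant, against 14% of all tested genes, by a median of 2.06. The median Ezh2a effect was 0.01, with 4 called higher and 4 lower, against 9.61% and 10.2% of all tested genes. Csf1r, through which CSF1 sustains macrophages, averaged 40.0 ± 1.10 CPM in the Ezh2b mutant and 10.4 ± 0.640 CPM in its wild type, against 129 ± 4.85 CPM in the Ezh2a mutant and 129.8 ± 4.46 CPM in its wild type (SD, n = 3). The 30 listed markers held 0.0630 to 0.0689% of counts in the Ezh2b mutant, 0.0145 to 0.0156% in its wild type, 0.212 to 0.228% in the Ezh2a mutant and 0.221 to 0.230% in its wild type. Cd163 was at 0 in 3 groups and Lyve1 in the Ezh2b wild type. The lowest sum therefore belonged to the Ezh2b wild type, and the part of macrophage RNA in the other positive differences was not tested.

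Secreted proteases changed in both directions. Among 33 tested Mmp, Adamts and Timp genes the difference was positive for 18 and negative for 8, against 14.7% and 11.9% of all tested genes, and 8 were opposed in the direction of Mmp13, against 3.18%. Mmp3, stromelysin-1, averaged 7.0 CPM in the Ezh2b mutant, 4.28 CPM in its wild type, 11.3 CPM in the Ezh2a mutant and 18.4 CPM in its wild type (effects 0.74 and -0.71). Adamts3, which processes procollagen, went the other way at 4.59, 11.0, 18.4 and 9.77 CPM in that order (effects -1.26 and 0.91). Of 24 tested p53 targets, 15 had a positive and 2 a negative difference, against 14.7% and 11.9% of all tested genes. Cdkn1a, the p53-induced inhibitor of cyclin-dependent kinases, averaged 397 ± 8.44 CPM in the Ezh2b mutant and 316 ± 11.5 CPM in its wild type, against 241 ± 7.91 CPM in the Ezh2a mutant and 270.4 ± 10.6 CPM in its wild type (SD, n = 3, difference 0.50 ± 0.05, adjusted p = 7.86e-07 by edgeR). Ccng1, Plk2, Trp53inp1, Mdm2, Plk3 and Eda2r were opposed in the same direction, which with Cdkn1a makes 7 of 24, against 3.18% of all tested genes. Perp, a desmosomal p53 target, was opposed the other way (effects -0.31 and 0.86), and its Ezh2b call was lost without Ezh2b mutant replicate 1 or 3 or Ezh2b wild-type replicate 3. The count of 7, Cdkn1a included, was 4 without Ezh2b mutant replicate 3, Ezh2b wild-type replicate 1 or Ezh2a wild-type replicate 2, and 4 when libraries were scaled by their totals.

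In the opposite direction, Col2a1 had the largest difference of the genes named by rule. Col2a1 (chromosome 15, 97975602 to 98004695, minus strand) encodes the main collagen of cartilage. It had 2.95, 2.41 and 3.90 CPM in the Ezh2b mutant libraries, against 6.94, 7.13 and 5.58 CPM in their wild type. It had 119, 131 and 121 CPM in the Ezh2a mutant libraries, against 1.10, 1.26 and 1.09 CPM in their wild type. Neither pair overlapped, and the effects of -1.09 and 6.75 gave a difference of -7.84 ± 0.19 (adjusted p = 3.82e-16 by edgeR). Other cartilage genes did not all share this pattern. Of 16 tested chondrocyte genes, 10 had a negative difference and 1 a positive one, against 11.9% and 14.7% of all tested genes, and Col2a1, Col9a2 and Matn3 were opposed in this direction. The Ezh2b effect on Col9a2, which stayed at or under 1.09 CPM in every group mean, lost the call without Ezh2b mutant replicate 3 or Ezh2b wild-type replicate 3. Matn4, a matrilin, rose in the Ezh2a mutant alone, to 9.65 CPM against 1.91 CPM, with 0.699 CPM in the Ezh2b mutant and 0.850 CPM in its wild type. Acan, the cartilage proteoglycan aggrecan, rose in both mutants, to 2.97 CPM against 0.489 CPM in the Ezh2b set and to 14 CPM against 1.5 CPM in the Ezh2a set, and its difference of -0.58 did not pass (adjusted p = 0.106 by edgeR). Comp fell in the Ezh2b mutant alone, to 4.94 CPM against 18.6 CPM, with 13.4 CPM in both Ezh2a groups. Col10a1, the collagen of hypertrophic cartilage, was opposed the other way, at 54.2, 44.4, 11.4 and 14.4 CPM in the Ezh2b mutant, Ezh2b wild type, Ezh2a mutant and Ezh2a wild type.

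The other leading genes that fell in the Ezh2b mutant and rose in the Ezh2a mutant included signalling and adhesion genes. Sema3d (chromosome 5, 12383385 to 12588948, plus strand), a secreted guidance cue, had 20.5, 18.9 and 16.3 CPM in the Ezh2b mutant libraries, against 98.1, 92 and 103 CPM in their wild type, and 57.8, 54.1 and 52.6 CPM in the Ezh2a mutant libraries, against 29.3, 30.6 and 30.8 CPM in their wild type. Its effects of -2.40 and 0.86 crossed over, since the Ezh2b set held both the highest and the lowest group (difference -3.26 ± 0.09, adjusted p = 2.63e-15 by edgeR). Igfbp2 (chromosome 1, 72824503 to 72852474, plus strand), which binds insulin-like growth factors, had 61.1, 67.7 and 57.8 CPM in the Ezh2b mutant libraries, against 106, 100.1 and 107 CPM in their wild type, and 194, 210.1 and 191 CPM in the Ezh2a mutant libraries, against 38.1, 34.5 and 37.7 CPM in their wild type. No groups overlapped, and the difference was -3.17 ± 0.08 (adjusted p = 5.54e-16 by edgeR). Igfbp4 followed it, averaging 192, 271, 489 and 326 CPM in the Ezh2b mutant, Ezh2b wild type, Ezh2a mutant and Ezh2a wild type, while Igfbp7 went the other way at 261, 169, 137 and 187 CPM in that order.

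Ntrk2 (chromosome 13, 58806569 to 59133970, plus strand), the receptor of brain-derived neurotrophic factor, rose mostly in the Ezh2a mutant. It had 0.213, 0.197 and 0.285 CPM in the Ezh2b mutant libraries, against 0.418, 0.482 and 0.604 CPM in their wild type, and 11.1, 10.9 and 9.39 CPM in the Ezh2a mutant libraries, against 0.791, 0.871 and 0.747 CPM in their wild type. The groups of neither set overlapped, and the difference was -4.87 ± 0.32 (adjusted p = 7.87e-10 by edgeR), but its Ezh2b effect lost the call without Ezh2b wild-type replicate 3 (adjusted p = 0.063 by edgeR). Penk (chromosome 4, 4133531 to 4138819, minus strand), the precursor of enkephalin peptides, was the reverse case. It had 54.6, 56.3 and 52.7 CPM in the Ezh2b mutant libraries, against 441, 349 and 409 CPM in their wild type, and 85.4, 86.2 and 86.0 CPM in the Ezh2a mutant libraries, against 73.8, 69.4 and 80.2 CPM in their wild type. Its fall of 2.87 in the Ezh2b mutant was large, while its Ezh2a effect of 0.21 lost the call when any of 5 Ezh2a libraries, all but wild-type replicate 3, was left out (highest adjusted p 0.172 by edgeR).

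Prokr1, a receptor for prokineticins (chromosome 6, 87578591 to 87590743, minus strand), started from equal wild-type levels. It had 1.6, 1.88 and 1.52 CPM in the Ezh2b mutant libraries, against 3.86, 2.65 and 3.29 CPM in their wild type, and 9.25, 8.86 and 9.45 CPM in the Ezh2a mutant libraries, against 3.16, 3.29 and 3.24 CPM in their wild type. The wild types overlapped and the mutants lay on either side of them (difference -2.46 ± 0.19, adjusted p = 6.99e-09 by edgeR). Eya1, a transcriptional coactivator of organ development, averaged 12.0 CPM in the Ezh2b mutant, 23.5 CPM in its wild type, 26.9 CPM in the Ezh2a mutant and 8.55 CPM in its wild type. Kirrel3, an adhesion molecule, averaged 1.43, 4.88, 3.06 and 1.65 CPM in that order, and Pcdh10, a protocadherin, 4.57, 6.04, 15.9 and 3.72 CPM. The Ezh2b effect of -0.39 on Pcdh10 lost the call without Ezh2b mutant replicate 1 or Ezh2b wild-type replicate 3. Zic2, a zinc-finger developmental factor, averaged 0.809, 1.19, 6.04 and 1.72 CPM, with overlapping Ezh2b groups, and stayed opposed under 4 of the 18 alternatives only. Bmi1 (chromosome 2, 18677018 to 18686629, plus strand), a subunit of Polycomb repressive complex 1, had 55.2, 57.3 and 56.1 CPM in the Ezh2b mutant libraries, against 60.5, 58.6 and 66.6 CPM in their wild type, and 85.3, 84.5 and 86.4 CPM in the Ezh2a mutant libraries, against 53.5, 51.9 and 54.3 CPM in their wild type. Its Ezh2b effect of -0.14 was small and lost the call without Ezh2b mutant replicate 1 or 3 or Ezh2b wild-type replicate 3, while its Ezh2a effect was 0.68.

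Genes of G2 and mitosis changed in opposite directions almost as a block. Of 40 tested members, 39 had a negative difference, against 11.9% of all tested genes, and 35 were opposed, against 2.78%. All 40, against 37.2% of all tested genes in either direction, had their 3 Ezh2b mutant libraries below the 3 libraries of the wild type. In 37 the 3 Ezh2a mutant libraries lay above those of the wild type, against 37.6% of all tested genes in either direction. The effects were of moderate size, from -0.50 to -0.19 in the Ezh2b mutant (median -0.37) and from -0.06 to 0.41 in the Ezh2a mutant (median 0.25). Ccna2, cyclin A2 (chromosome 3, 36564865 to 36572150, minus strand), had 63.6, 63.6 and 65.2 CPM in the Ezh2b mutant libraries, against 81.3, 89.0 and 92.5 CPM in their wild type, and 84.7, 86.7 and 87.6 CPM in the Ezh2a mutant libraries, against 62.5, 67.4 and 65.6 CPM in their wild type. The Ezh2b mutant and the Ezh2a wild type shared the low level, and the Ezh2b wild type and the Ezh2a mutant shared the high one (difference -0.86 ± 0.06, adjusted p = 4.32e-09 by edgeR). Nusap1, Ndc80 and Nuf2, which act at the spindle and kinetochore, had differences of -0.81, -0.80 and -0.80. Mki67, the antigen Ki-67 of cycling cells, averaged 239, 300.5, 329 and 269.6 CPM in the Ezh2b mutant, Ezh2b wild type, Ezh2a mutant and Ezh2a wild type. Anln, Mad2l1, Cdca8 and Ckap2 passed in the Ezh2b mutant alone, and Pttg1, securin, did not pass (difference -0.13, adjusted p = 0.453 by edgeR).

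The summed share of the 40 genes was 0.186 to 0.193% of counts in the Ezh2b mutant, 0.245 to 0.255% in its wild type, 0.230 to 0.240% in the Ezh2a mutant and 0.188 to 0.195% in its wild type. Between the wild types, 39 of the 40 were called higher in the Ezh2b set, against 20.4% of all tested genes. The median log2 difference of the 40 was 0.41. The number of cycling cells and the level per cell cannot be told apart in these libraries.

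**Figure D3:**
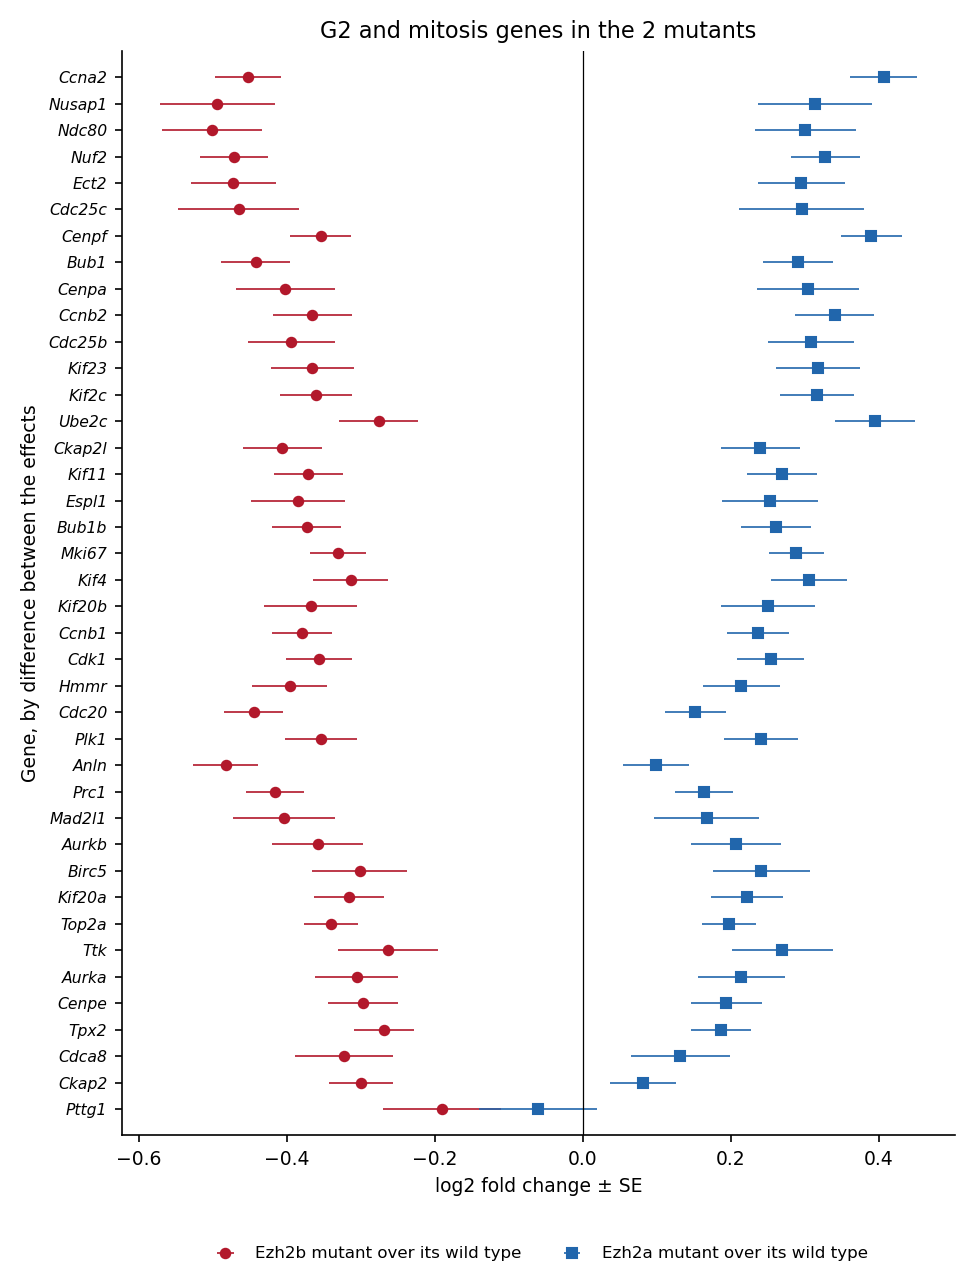
Log2 fold change (± SE, horizontal axis) of the 40 genes of G2 and mitosis in the Ezh2b mutant and in the Ezh2a mutant, each over its own wild type, ordered by the difference between the effects. Every Ezh2b value lies left of 0, from -0.50 to -0.19, and all Ezh2a values but that of Pttg1 lie right of 0, up to 0.41.

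The promoters of these mitotic genes were read for the elements known to drive late cell-cycle transcription. They are the CHR element, searched as TTTGAA and its reverse complement TTCAAA, and the CCAAT box, searched as CCAAT and its reverse complement ATTGG, in the 250 bases before and 50 after the start in RefSeq (GRCm38.p6). Of the 40 genes 35 had a promoter in the table. CHR letters were found in 26 of them (74.3%), against 18.1% of all 27025 promoters and 12.3% of those of tested genes. Within 50 bases of the start they were found in 23 (65.7%), against 4.92% of all promoters. CCAAT letters were found in 26 (74.3%), against 37.9% of all promoters, and both elements in 22 (62.9%), against 7.12%. Of 37 promoters of DNA replication genes, 4 (10.8%) held CHR letters and 23 (62.2%) held CCAAT letters. Of 30 promoters of the opposed mitotic genes, 23 (76.7%) held CHR letters. The matches describe these sequences, do not depend on the mutants and show no binding. The promoters of Ccnb2 and Cdk1, the mitotic cyclin and its kinase, and of Cdc20, an activator of the anaphase-promoting complex, are printed as examples chosen after their values were seen. Capitals mark CHR and CCAAT matches on either strand, each sequence has 280 bases of which the last 30 are transcribed, and all 3 genes lie on the minus strand, at chr9:70421525-70421804 for Ccnb2, chr10:69352883-69353162 for Cdk1 and chr4:118437314-118437593 for Cdc20. CHR matches begin at -167 and 5 in Ccnb2, at -71 and -15 in Cdk1 and at -18 in Cdc20, counted from the start.
Ccnb2: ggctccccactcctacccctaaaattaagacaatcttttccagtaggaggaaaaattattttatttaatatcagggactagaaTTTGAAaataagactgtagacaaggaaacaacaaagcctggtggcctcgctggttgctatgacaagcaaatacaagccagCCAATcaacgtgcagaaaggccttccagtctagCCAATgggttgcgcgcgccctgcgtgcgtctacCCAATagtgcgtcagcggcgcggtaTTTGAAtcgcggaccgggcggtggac
Cdk1: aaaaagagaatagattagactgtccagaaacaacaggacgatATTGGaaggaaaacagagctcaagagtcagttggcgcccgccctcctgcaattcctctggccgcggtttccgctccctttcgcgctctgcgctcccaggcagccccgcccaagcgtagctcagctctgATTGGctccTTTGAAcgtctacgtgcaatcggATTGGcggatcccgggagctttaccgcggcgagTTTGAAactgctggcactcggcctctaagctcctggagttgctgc
Cdc20: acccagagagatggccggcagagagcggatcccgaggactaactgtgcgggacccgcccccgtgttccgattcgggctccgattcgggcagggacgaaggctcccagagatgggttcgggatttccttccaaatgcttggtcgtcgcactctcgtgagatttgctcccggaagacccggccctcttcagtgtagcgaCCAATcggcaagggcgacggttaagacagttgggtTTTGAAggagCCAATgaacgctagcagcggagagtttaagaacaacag

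The genes with these promoters followed the list. Ccnb2 averaged 27.6 ± 0.662 CPM in the Ezh2b mutant and 35.6 ± 2.01 CPM in its wild type, against 36.0 ± 2.03 CPM in the Ezh2a mutant and 28.5 ± 0.762 CPM in its wild type (SD, n = 3). Cdk1 averaged 47.0 ± 2.06, 60.2 ± 1.27, 54.3 ± 2.12 and 45.5 ± 1.72 CPM in the same order. Cdc20 averaged 53.8, 73.1, 53.9 and 48.6 CPM, and its Ezh2a effect of 0.15 lost the call without Ezh2a mutant replicate 3 or Ezh2a wild-type replicate 1.

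DNA replication genes leaned the same way. Of 46 tested, 31 had a negative difference and none a positive one, against 11.9% and 14.7% of all tested genes. Opposed changes occurred in 10, against 2.78%, and in 6 without replicate 3 of either the Ezh2a mutant or its wild type. The median effects were -0.23 in the Ezh2b mutant and 0.12 in the Ezh2a mutant. Mcm5, a subunit of the replicative helicase, averaged 46.7 CPM in the Ezh2b mutant, 61.7 CPM in its wild type, 58.1 CPM in the Ezh2a mutant and 50.3 CPM in its wild type. Tyms, thymidylate synthase, averaged 24.4, 28.8, 27.5 and 21.9 CPM in that order. Among 8 tested inhibitors of cyclin-dependent kinases, Cdkn3, Cdkn2c and Cdkn1b moved with the mitotic genes, and Cdkn1a moved against them. Cdkn2a, which encodes p16 and p19Arf, fell in both mutants by unequal amounts. It had 50.1, 51.9 and 51.6 CPM in the Ezh2b mutant libraries, against 59.7, 62.9 and 61 CPM in their wild type, and 20.1, 20.3 and 21.5 CPM in the Ezh2a mutant libraries, against 37.2, 39.7 and 39.1 CPM in their wild type. All 4 groups were separate, with effects of -0.26 and -0.90 (difference 0.65 ± 0.06, adjusted p = 1.78e-07 by edgeR).

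Hox genes, patterning factors known as Polycomb targets, differed between the mutants by cluster. Of 25 tested genes of groups 1 to 9, 17 had a positive difference and none a negative one, against 14.7% and 11.9% of all tested genes, and the median effects were 0.84 in the Ezh2b mutant and 0.16 in the Ezh2a mutant. All 8 tested Hoxb genes and all 5 tested Hoxc genes of these groups passed, against 2 of 8 Hoxa genes and 2 of 4 Hoxd genes. In the Hoxb cluster the rise was called in the Ezh2b mutant alone. Hoxb3 (chromosome 11, 96323326 to 96347930, plus strand) had 17.1, 16.8 and 17.8 CPM in the Ezh2b mutant libraries, against 9.06, 6.68 and 8.60 CPM in their wild type, and 17.1, 18.3 and 16.3 CPM in the Ezh2a mutant libraries, against 15.8, 16.0 and 15.6 CPM in their wild type. The Ezh2b wild type was the only low group. In the Hoxc cluster, Hoxc5, Hoxc6, Hoxc8, Hoxc9 and Hoxc10 were opposed. Hoxc6 (chromosome 15, 102998257 to 103011881, plus strand) had 25.9, 26.7 and 24.6 CPM in the Ezh2b mutant libraries, against 13.3, 12.5 and 15.0 CPM in their wild type, and 18.6, 21.3 and 18.3 CPM in the Ezh2a mutant libraries, against 24.6, 23.3 and 24.5 CPM in their wild type. Neither pair overlapped (effects 0.91 and -0.32, difference 1.23 ± 0.10, adjusted p = 1.83e-08 by edgeR). Without Ezh2a mutant replicate 1, Hoxc5 and Hoxc8 lost their Ezh2a call, which left 2 opposed genes in groups 1 to 9.

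The genes at the other end of the Hoxa and Hoxd clusters fell in both mutants or in the Ezh2b mutant alone. Hoxd13 (chromosome 2, 74668310 to 74671599, plus strand), which patterns the digits, had 51.5, 56.5 and 54.6 CPM in the Ezh2b mutant libraries, against 118, 116 and 135 CPM in their wild type, and 46.5, 46.3 and 47.4 CPM in the Ezh2a mutant libraries, against 56.1, 57.9 and 54.0 CPM in their wild type. The fall was larger in the Ezh2b mutant (difference -0.92 ± 0.08, adjusted p = 2.12e-08 by edgeR), whose wild type was the highest group. Hoxd11 and Hoxd12 also fell in both, and Hoxa13 fell by 1.32 in the Ezh2b mutant with an effect of -0.01 in the Ezh2a mutant. Hoxa11 fell further in the Ezh2a mutant, with effects of -0.43 and -0.79 (difference 0.36, adjusted p = 0.017 by edgeR). Hoxc10, at 17.7, 13.8, 10.9 and 18.7 CPM in the Ezh2b mutant, Ezh2b wild type, Ezh2a mutant and Ezh2a wild type, was the opposed member of groups 10 to 13.

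**Figure D4:**
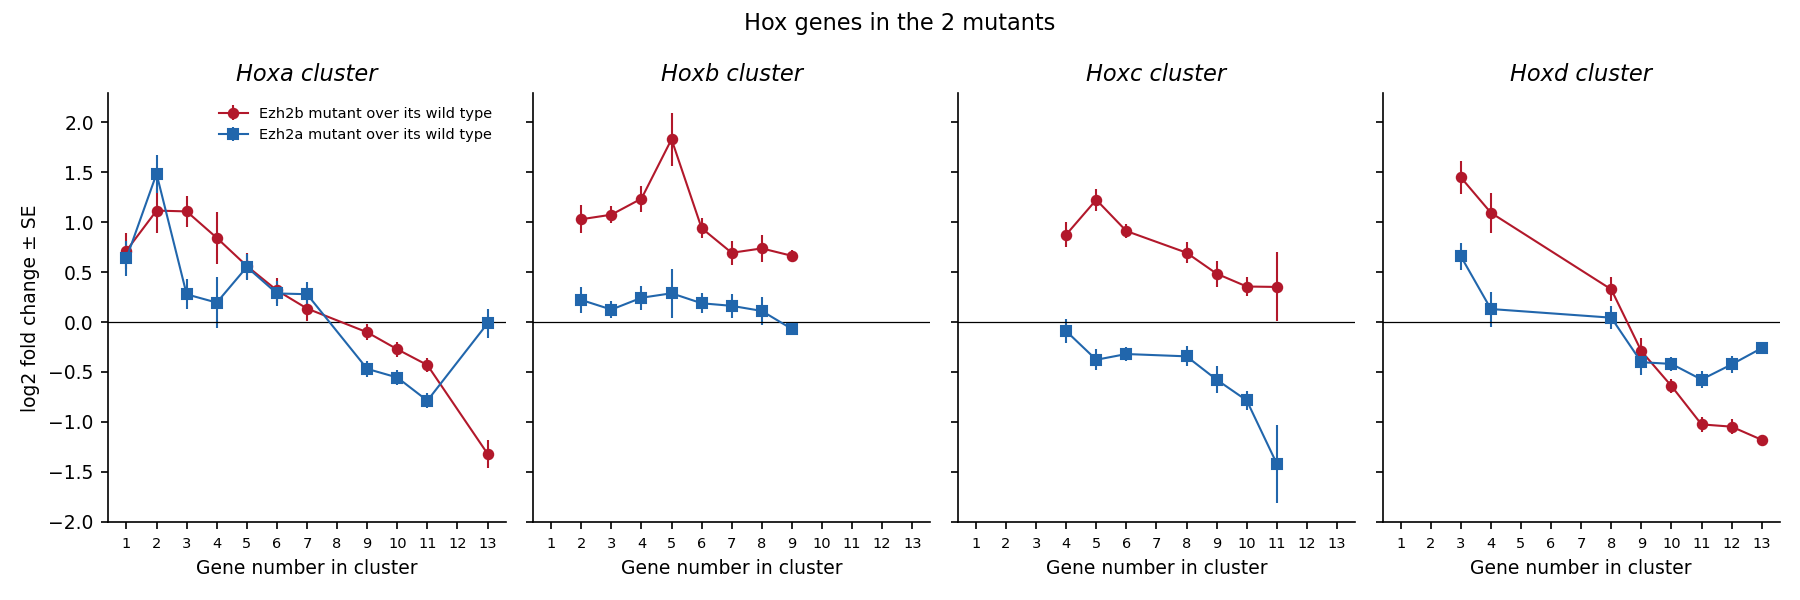
Log2 fold change (± SE, vertical axis) of each tested Hox gene in the Ezh2b mutant and in the Ezh2a mutant, each over its own wild type, by gene number in its cluster (horizontal axis). In the Hoxb and Hoxc panels the Ezh2b values lie above the Ezh2a values at every gene, and in the Hoxd panel both lines fall below 0 from Hoxd9 on.

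Other regulators of limb and mesenchyme were split. Of 61 tested, 17 had a positive and 27 a negative difference, against 14.7% and 11.9% of all tested genes. Opposed changes were up in the Ezh2b mutant for 3 (Gata4, Barx1 and En1), against 3.18%, and down in it for 8, against 2.78%, or 5 without Ezh2a mutant replicate 2. Barx1, a homeobox factor of mesenchyme, averaged 5.77 ± 0.567 CPM in the Ezh2b mutant and 2.43 ± 0.607 CPM in its wild type, against 1.46 ± 0.254 CPM in the Ezh2a mutant and 3.48 ± 0.396 CPM in its wild type (SD, n = 3, difference 2.48 ± 0.24, adjusted p = 2.03e-07 by edgeR). Hand2, a limb-bud factor, averaged 4.92 CPM in the Ezh2b mutant, 9.76 CPM in its wild type, 8.93 CPM in the Ezh2a mutant and 6.18 CPM in its wild type. Its Ezh2a effect lost the call without Ezh2a mutant replicate 2. Pitx1 and Tbx4, which mark the hindlimb, each fell in 1 mutant. Pitx1 averaged 26.8, 25.3, 12.8 and 20.6 CPM in the Ezh2b mutant, Ezh2b wild type, Ezh2a mutant and Ezh2a wild type, and Tbx4 averaged 26.9, 49.2, 31.8 and 34.7 CPM. Such falls were not limited to hindlimb factors, since Tbx5 also fell in the Ezh2a mutant alone, at 10.7, 9.20, 6.48 and 9.09 CPM in that order.

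The leading genes that changed in the Ezh2a mutant alone included Six2, a homeobox factor of kidney and facial mesenchyme, at 0.909 CPM in the Ezh2b mutant, 0.687 CPM in its wild type, 6.03 CPM in the Ezh2a mutant and 0.884 CPM in its wild type. Zbtb8b, a zinc-finger gene, fell in the Ezh2a mutant to 1.45 CPM against 7.11 CPM, with 0.200 CPM in the Ezh2b mutant and 0.157 CPM in its wild type, and without Ezh2b mutant replicate 2 its difference no longer passed (1.76, adjusted p = 0.167 by edgeR). Zbp1, a sensor of nucleic acids induced by interferon, fell to 2.66 ± 0.587 CPM in the Ezh2a mutant, against 6.94 ± 1.92 CPM in its wild type, with 3.25 ± 1.58 CPM in the Ezh2b mutant and 1.96 ± 1.23 CPM in its wild type (SD, n = 3). It belongs to 41 tested interferon-stimulated genes, of which 38 fell in the Ezh2a mutant, against 10.2% of all tested genes, and 4 fell in the Ezh2b mutant, a share no higher than the 12.1% of all tested genes. Their difference was positive for 14 and negative for 1, against 14.7% and 11.9%, and none was opposed. That count of 14 depended on single libraries. It was 30 without Ezh2b mutant replicate 3 and 23 without Ezh2a wild-type replicate 1. It was 6 without Ezh2b mutant replicate 1 or 2 or Ezh2a wild-type replicate 3, 7 without Ezh2a mutant replicate 2, and 9 without Ezh2b wild-type replicate 3 or Ezh2a wild-type replicate 2. The count of opposed genes was 2 without Ezh2b mutant replicate 3 or Ezh2b wild-type replicate 1.

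In the Ezh2b mutant alone, Il21r, the receptor of interleukin-21, and Nlrp3, the core of an inflammasome, rose by 3.54 and 2.55. Il21r averaged 1.85 CPM in the Ezh2b mutant, 0.134 CPM in its wild type, 5.08 CPM in the Ezh2a mutant and 4.22 CPM in its wild type, and Nlrp3 1.6, 0.284, 3.83 and 4.69 CPM in that order. Both had their lowest level in the Ezh2b wild type, as the macrophage markers did. Fgf5, a fibroblast growth factor, fell by 2.15 to 1.72 CPM against 7.53 CPM, with 3.05 CPM in the Ezh2a mutant and 2.43 CPM in its wild type. Esrrg, an orphan nuclear receptor, fell by 1.91 to 4.61 CPM against 17.2 CPM, with 3.26 CPM in the Ezh2a mutant and 2.55 CPM in its wild type. For both, the Ezh2b wild type was the highest group.

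Where both mutants moved the same way, the size could still differ widely. Pou3f4 (chromosome X, 110814280 to 110817207, plus strand), a POU-domain factor of inner ear mesenchyme and brain, had 0.818, 0.722 and 0.602 CPM in the Ezh2b mutant libraries, against 0.418, 0.551 and 0.421 CPM in their wild type, and 24.7, 23.2 and 21.3 CPM in the Ezh2a mutant libraries, against 0.357, 0.420 and 0.467 CPM in their wild type. The wild types overlapped, and the effects were 0.64 and 5.80 (difference -5.15 ± 0.30, adjusted p = 1.3e-10 by edgeR). Its Ezh2b call was narrow (adjusted p = 0.0449 by edgeR), with means of 0.714 CPM in the mutant and 0.463 CPM in its wild type. Cd33 and Csf2rb, receptors of myeloid cells, rose by 2.48 and 2.34 in the Ezh2b mutant and by 0.40 and 0.33 in the Ezh2a mutant. Cd33 averaged 3.49 CPM in the Ezh2b mutant, 0.626 CPM in its wild type, 12.6 CPM in the Ezh2a mutant and 9.58 CPM in its wild type. Csf2rb averaged 3.16, 0.613, 10.0 and 7.98 CPM in that order. The Ezh2b wild type was the lowest group for both, as for the macrophage markers. Gata2 (chromosome 6, 88193891 to 88207032, plus strand), a zinc-finger factor, had 4.59, 5.01 and 5.42 CPM in the Ezh2b mutant libraries, against 7.97, 7.78 and 7.83 CPM in their wild type, and 1.61, 1.77 and 2.79 CPM in the Ezh2a mutant libraries, against 7.40, 7.49 and 6.88 CPM in their wild type. It fell further in the Ezh2a mutant (difference 1.17 ± 0.20, adjusted p = 0.000125 by edgeR). Lrrtm3, a synaptic adhesion protein, fell by 2.08 in the Ezh2b mutant and by 0.84 in the Ezh2a mutant.

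The lists that follow are read against 14.7% positive and 11.9% negative differences among all tested genes. Of 25 tested chemokines and cytokines, 14 had a positive and 3 a negative difference. Opposed up in the Ezh2b mutant were 5 (Ccl2, Ccl9, Cxcl14, Cxcl16 and Il1rn), against 3.18% of all tested genes. Cx3cl1 was the 1 opposed the other way, against 2.78%. Ccl9 and Cxcl16 had their lowest level in the Ezh2b wild type, at 1.47 and 2.86 CPM, against 11.5 and 23.8 CPM in the Ezh2a wild type. Glycolysis and hypoxia genes had 14 positive and 1 negative difference of 29 tested. Hk2, hexokinase 2, averaged 56.1 CPM in the Ezh2b mutant, 45.5 CPM in its wild type, 41.2 CPM in the Ezh2a mutant and 47.2 CPM in its wild type, whereas Adm, adrenomedullin, went the other way at 26.0, 45.8, 30.4 and 26.0 CPM and lost its Ezh2a call without Ezh2a wild-type replicate 1. Cholesterol synthesis and uptake genes had 11 negative and 2 positive differences of 29. Wnt, BMP and TGF-beta, FGF and guidance genes split between the directions, with shares above those of all tested genes in both. For Wnt the counts were 11 positive and 17 negative of 43, for BMP and TGF-beta 13 and 13 of 50, for FGF 7 and 7 of 27, and for guidance 17 and 17 of 62. Of 74 ribosomal protein genes 1 had a called difference, and 14 were negative when libraries were scaled by their totals. Without Ezh2b wild-type replicate 3, 4 were positive and 4 negative.

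**Figure D5:**
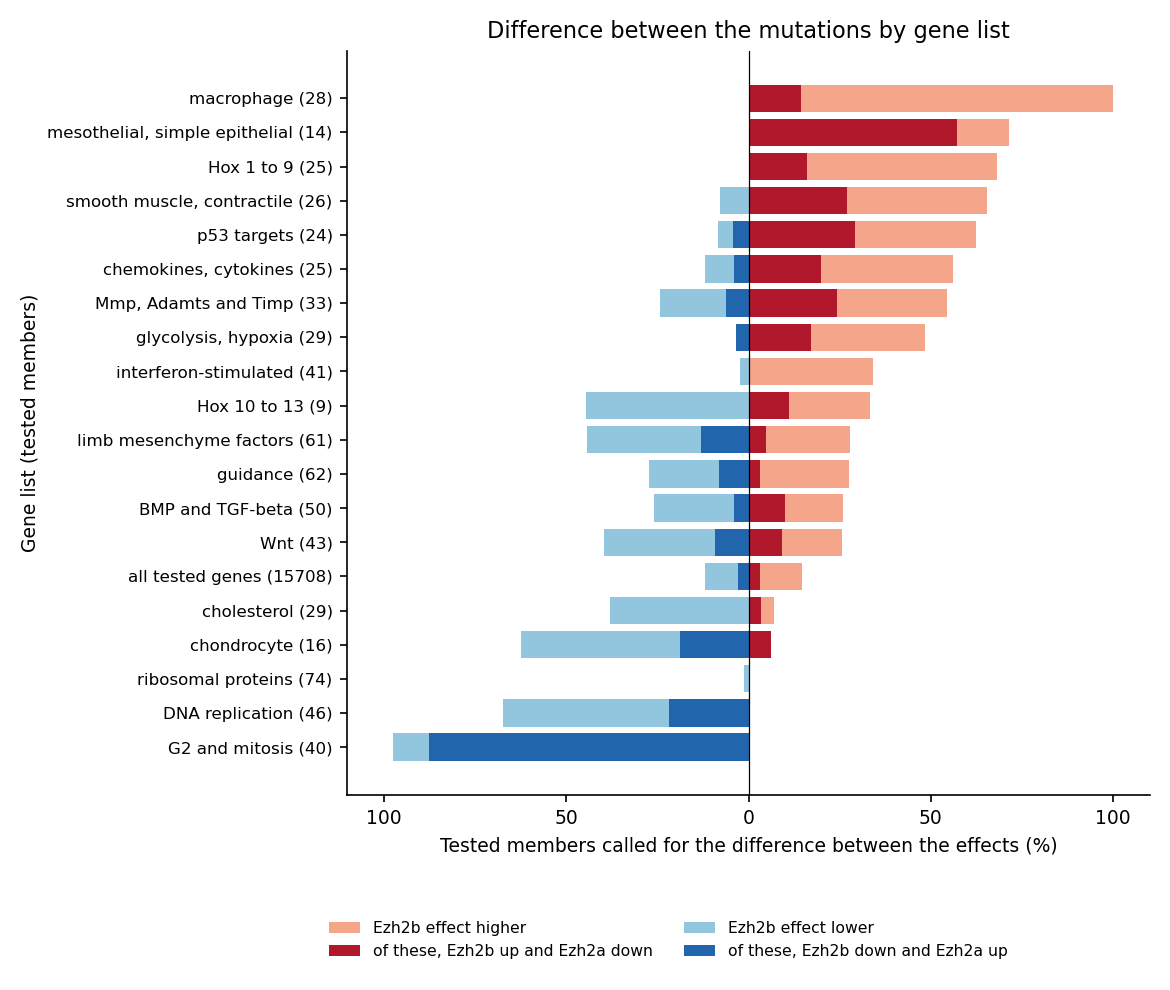
Share of the tested members of each gene list (%) whose effects differed between the mutations, with positive differences to the right and negative ones to the left of 0 and the opposed genes in dark colours. G2 and mitosis genes lie almost wholly to the left (39 of 40) and macrophage markers wholly to the right (28 of 28), while all tested genes together reach 14.7% to the right and 11.9% to the left.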

How the data were processed

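The authors deposited 1 table of read counts per gene symbol for the 12 libraries. The submitters' processing notes name HISAT2 2.1.0, fastp 0.21.0, edgeR 4.2.1 and StringTie 2.1.5, with the build GRCm38 (mm10), and the protocols describe random-hexamer cDNA from poly-A RNA, per the labels. The sources used here do not name the counting program, the annotation or a strand setting. Counts of 2 outnumbered counts of 1 (13267 against 3357), so read ends may have been counted, and halved counts were tried. Where strand was not used, reads of a gene and an overlapping or antisense neighbour cannot be told apart.

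Counts were tested as deposited with edgeR 4.0.16 in R 4.3.3 (filterByExpr by group, TMM scaling, quasi-likelihood test, Benjamini-Hochberg adjustment over all 15708 genes, threshold 0.05), in 1 fit of 12 libraries with 8 residual degrees of freedom. CPM are TMM-scaled. Total counts of 28811482 to 54070380 per library set the precision. The test of the difference was checked on simulated data in which all genes had the same dispersion. It recovered 34% of 50 genes changed 1.25-fold, 94% of 50 changed 1.5-fold and 100% of 50 changed 2-fold, with 8 false calls. Small changes can therefore be missed. DESeq2 1.42.0, other scalings and filters and leaving out each library were the alternatives.

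Genes were named by rule. These were Ezh2, and, among called genes with a mean log2 CPM of at least 1, the 10 largest opposed differences per direction, the 2 largest per mutant and direction among genes called in 1 mutant, and the 3 largest rising and falling in both. From some lists, members with large differences and genes of known role were added, as were Il1rn, Dusp4 and other genes whose values had been seen. The largest differences of several lists, up to 12.1 among imprinted genes, are not described. The members and all 38 gene lists were chosen with earlier results of these data known. Positions are from GENCODE M21 on GRCm38, and promoters from RefSeq GRCm38.p6.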

Additional observations from a re-analysis of the deposited data

Results flagged for a closer look

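The effects of the mutations differed, by the test of the difference itself (edgeR's quasi-likelihood test, adjusted over all tested genes), in each of 35 genes named by rule. All but Ezh2 were chosen among genes that had passed this same test, so their passing follows from the choice. Ezh2 had a difference, the Ezh2b effect minus the Ezh2a effect, of 1.07 on the log2 scale. Among genes up in the Ezh2b mutant and down in the Ezh2a mutant, the differences were 4.61 for Mmp13, 4.12 for Krt18, 3.66 for Muc16, 3.46 for Serpinb6b, 3.18 for Gpr149, 3.05 for Des, 2.9 for Dpep2, 2.83 for Lyz2, 2.83 for Pla2g7 and 2.82 for Upk3b. Among genes down in the Ezh2b mutant and up in the Ezh2a mutant, they were -7.84 for Col2a1, -4.87 for Ntrk2, -3.26 for Sema3d, -3.17 for Igfbp2, -3.08 for Penk, -2.63 for Kirrel3, -2.62 for Eya1, -2.49 for Pcdh10, -2.46 for Prokr1 and -2.39 for Zic2.

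Of genes called in the Ezh2b mutant alone, Il21r had a difference of 3.27, Nlrp3 of 2.84, Fgf5 of -2.47 and Esrrg of -2.27. Of genes called in the Ezh2a mutant alone, Matn4 had -2.68, Six2 -2.46, Zbtb8b 2.61 and Zbp1 2.15. Where both mutants moved the same way, Pou3f4 had -5.15, Cd33 2.08, Csf2rb 2.02, Lrrtm3 -1.24, Gata2 1.17 and Hoxd13 -0.92. The genes were chosen by the size of these differences, so the sizes are a description.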

How the results depend on the processing

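The number of genes with a called difference was 4394 with no filter on low counts, 4510 with library totals, 4191 with DESeq2's size factors in edgeR, 3927 with DESeq2, 4105 with halved counts, and 3728 to 4321 when each library was left out, against 4168. Opposed genes numbered 1009, 981, 951, 894, 952 and 746 to 985, against 936. With library totals, genes called in the Ezh2a mutant alone were 639 up and 339 down, against 418 and 536. Genes falling in both mutants were 41 to 69 when each library was left out, against 64. The cause of these shifts was not tested. With the replicate number as a block, 4111 genes had a called difference and 922 were opposed. The labels do not say that these numbers pair the libraries. Of 18 same-numbered pairs, 2 had correlated deviations over 0.1 (range -0.21 to 0.16). Deviations from means of 3 libraries cannot settle whether same-numbered libraries were handled together. Of counts over gene lists, 151 of the values under alternatives moved by more than 1.5 times and 2585 did not. Among genes named by rule and list members with the largest differences, no called difference changed sign under the 18 alternatives. In that check 39 values lost a call and 26 gained one. Not every list member was part of it. Calls of Zic2 and Zbtb8b changed with single libraries, and a part of depth in this was not tested.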
